A study of Mus musculus with 9 samples.

Results

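The genes described here are 9 genes by which sprouting endothelium is commonly told from resting endothelium: *Esm1*, *Apln*, *Aplnr*, *Cxcr4*, *Pdgfb*, *Unc5b*, *Adm*, *Plaur* and *Angptl4*. They were chosen by name, as the rows carrying these symbols, and are 9 of the 37104 loci in the tables. RNA-seq had been carried out on primary mouse lung endothelial cells (MLEC) from 3 groups of C57BL/6J mice aged 10 to 12 weeks, with 3 libraries per group. In E3KO cells both copies of *Mapk8*, which encodes JNK1, and of *Mapk9*, which encodes JNK2, were flanked by LoxP sites, and *Cdh5*-Cre was present. ECtrl cells carried *Cdh5*-Cre with intact *Mapk8* and *Mapk9*, and EfCtrl cells carried the LoxP alleles of both genes without Cre. All 3 groups, the controls included, were *Mapk10*-/- and thus lacked JNK3. *Cdh5*-Cre is active in endothelium, so the deletion was not limited to the lung or to sprouting vessels. Each library was made from a separate isolation from the lungs of 4 mice, with bead selection for ICAM2 and several days in culture, so the values describe cultured cells from pooled animals and not vessels in place. The comparison of E3KO with each control group addresses whether the expression of these genes depends on endothelial JNK.

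When a vessel sprouts, a few endothelial cells at its front, the tip cells, extend filopodia and migrate toward VEGF, while the stalk cells behind them divide and form the lumen. VEGF induces the Notch ligand Dll4 in the tip cell, and Notch signaling in its neighbors holds them in the stalk state. Tip cells express secreted factors (Esm1, apelin, adrenomedullin, PDGF-B, Angptl4), guidance and chemokine receptors (Unc5b, Cxcr4) and the urokinase receptor (Plaur), which localizes proteolysis of the matrix at the cell front. The receptor for apelin, Aplnr, is found mainly on veins and on the stalk cells behind the tip. JNK phosphorylates c-Jun and other members of the AP-1 transcription factors.

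The targeted genes were read first. The FPKM (fragments scaled to exon length and to the mapped fragments of the library) of *Mapk9* was 42.7 to 50.9 in the 6 control libraries and 27.6, 35.1 and 20.7 in E3KO replicates 1, 2 and 3. *Mapk8* was 14.0 to 17.9 in the controls, 8.77 and 4.65 in E3KO replicates 2 and 3, and 20.7 in replicate 1, which is above every control. The library labelled E3KO replicate 1 thus lacks the lower *Mapk8* of replicates 2 and 3 but has the lower *Mapk9*. An FPKM covers the whole locus, so deletion of the stretch between the LoxP sites was not read directly. The library labelled E3KO replicate 1 also stood apart in its total, which was 9841812 FPKM against 656089 to 908401 in the other libraries. The 10 highest symbols held 96.4% of it, against 40.9% to 56.8%. With the symbols of highest mean FPKM left out, its total was 420517, within the 388537 to 433172 of the other libraries. *Mapk10* did not exceed 0.270 FPKM in any library. The differences of the 9 genes and the calls in the lists around them are given with and without the library labelled E3KO replicate 1. The number of fragments behind an FPKM value is unknown, so no counting interval is given. *Cdh5* (613 to 943 FPKM in all 9 libraries) marked the cells as endothelial.

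Of the 9 genes, *Esm1* rose in E3KO cells and was the only one called. In bulk RNA fewer cells of a type and less RNA per cell cannot be told apart. *Apln* was higher in all 3 E3KO libraries than in any control but did not pass the test. *Plaur* and *Unc5b* had lower means in E3KO, and *Cxcr4*, *Adm* and *Angptl4* had means 1.04 to 1.06 times those of the controls. Differences were tested with limma on log2(FPKM + 1), in a fit of all 9 libraries over 10605 genes that reached a mean of 2 FPKM in any group, and a call is a Benjamini-Hochberg adjusted p under 0.05. All genes but *Aplnr*, 8 of 9, passed this minimum. Against ECtrl 0 of 8 were called, where 2.25% of all genes tested were (0.82% higher and 1.43% lower). Against EfCtrl 0 of 8 were called, where 0.952% of all genes were (0.368% higher and 0.585% lower). The 8 genes had an unadjusted limma p under 0.05 in 3 cases against ECtrl and 4 against EfCtrl. Of all 10605 genes, 2134 did so against ECtrl and 1878 against EfCtrl. Against the mean of both control groups 1 of 8 was called, where 4.8% of all genes were. An unadjusted limma p under 0.05 was reached there by 4 of 8, and by 2522 of all 10605 genes. The count called against both was 0 of 8 without the library labelled E3KO replicate 1. The comparisons share the E3KO libraries. All 3 E3KO libraries lay above all 6 controls for 2 of the 8 tested genes (5.18% of all genes) and below all of them for 0 (11.5%). The median log2 difference of the 8 genes from both controls was 0.06, against -0.08 over all genes. Between the controls 0 of 8 were called, with 0% of all genes called and 195 of 10605 genes at an unadjusted limma p under 0.05. The log2 differences of EfCtrl from ECtrl ran from -0.19 for *Apln* to 0.18 for *Angptl4*.

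**Figure D1:**
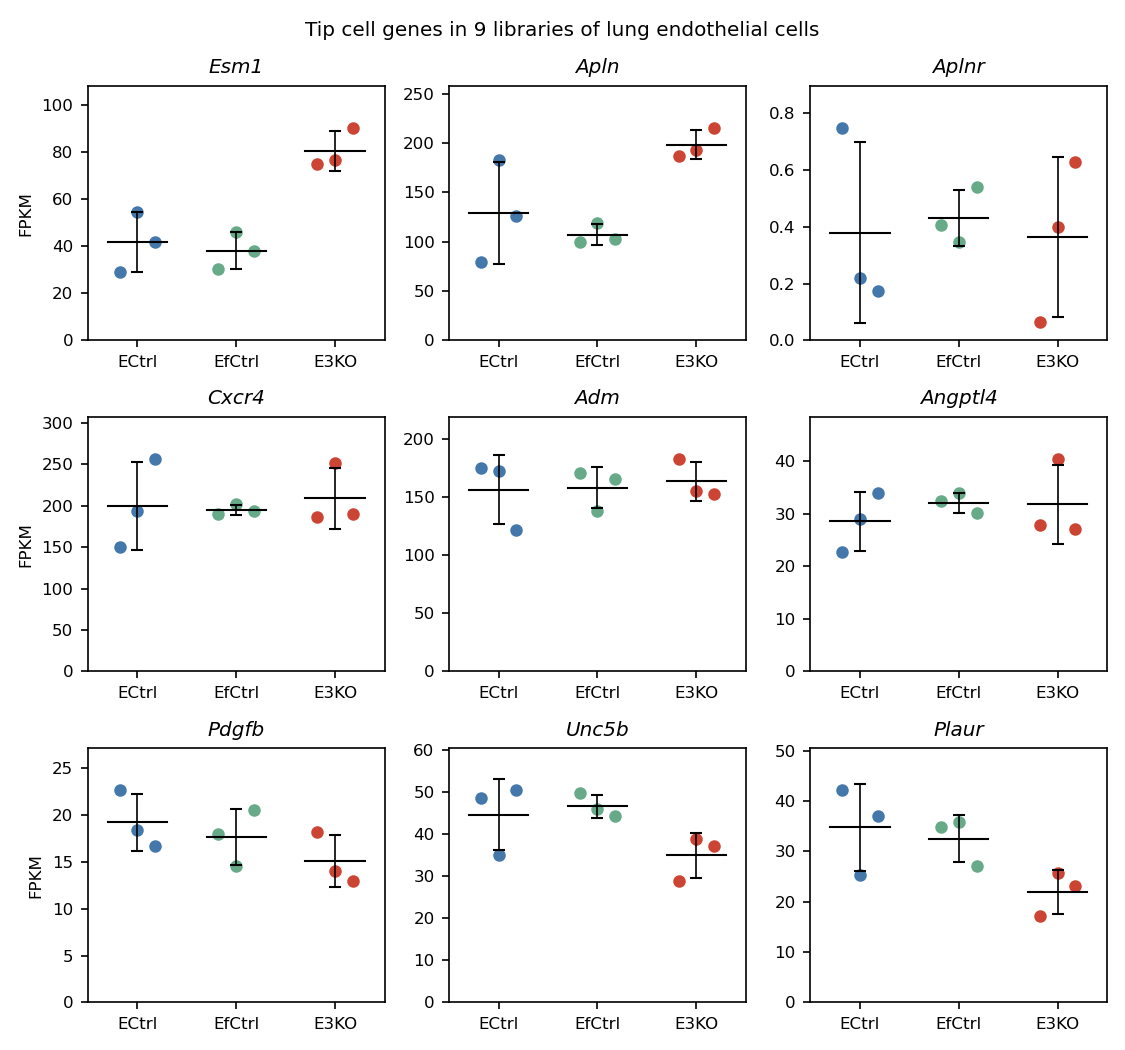
FPKM of the 9 genes (y axes, linear from 0) in each library of ECtrl, EfCtrl and E3KO (points, replicates 1 to 3 from left to right), with the mean (line) and SD (bar) of each group of 3. For *Esm1* the E3KO points sit between 74.8 and 90.1, above the highest control at 54.4, and for *Cxcr4*, *Adm* and *Angptl4* the groups overlap.

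**Figure D2:**
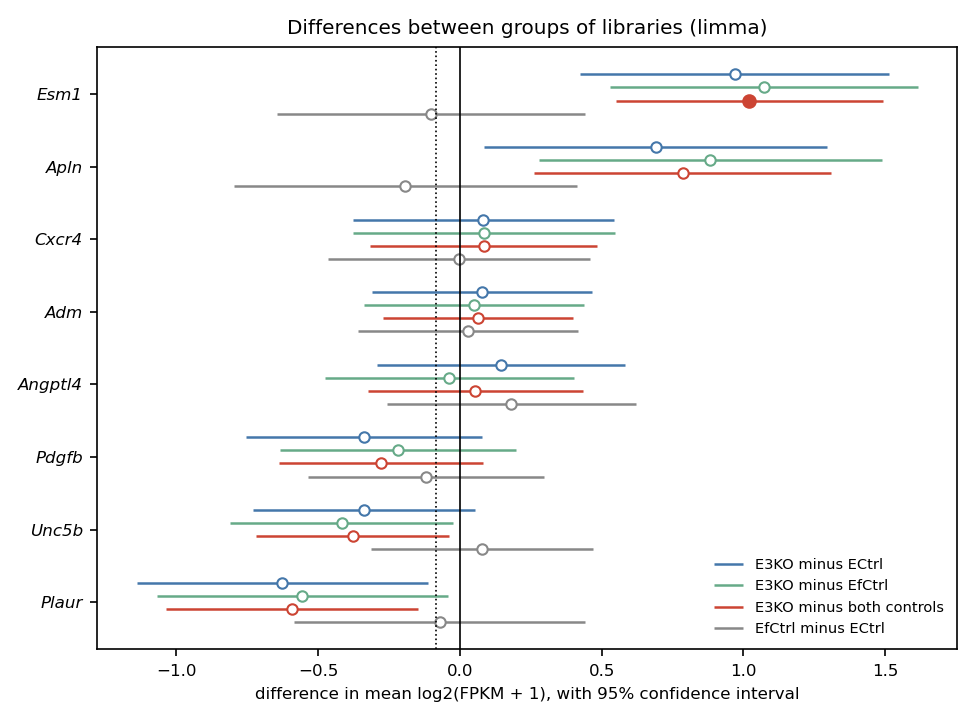
Differences in mean log2(FPKM + 1) of the 8 tested genes (x axis) with 95% confidence intervals from limma, for E3KO against each control group, against both, and for EfCtrl against ECtrl. Filled points passed the adjusted p threshold and open points did not, and the dotted line is the median of all genes tested. The interval of *Esm1* against both controls runs from 0.55 to 1.49 and its point is the filled one.

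As FPKM is per length of transcript, the levels of different genes within a library can be set side by side. In the 6 control libraries the order of mean FPKM was *Cxcr4* (198), *Adm* (157), *Apln* (118), *Unc5b* (45.6), *Esm1* (40.0), *Plaur* (33.6), *Angptl4* (30.3), *Pdgfb* (18.5) and *Aplnr* (0.406). *Cxcr4* lay above 97.1% of the genes tested and *Pdgfb* above 60.6%. *Apln* exceeded *Unc5b*, *Angptl4* exceeded *Pdgfb* and *Pdgfb* exceeded *Aplnr* in 6 of 6 control libraries, each with an exact two-sided sign-flip permutation p of 0.0312, the smallest that 6 libraries allow, and 0.0833 after adjustment over the 8 neighboring pairs. The other neighbors changed places between control libraries, so the order from *Unc5b* down to *Angptl4* was not resolved, nor that of *Cxcr4*, *Adm* and *Apln*. In E3KO the means ran *Cxcr4* (209), *Apln* (198), *Adm* (163), *Esm1* (80.5), *Unc5b* (34.9), *Angptl4* (31.8), *Plaur* (22.0), *Pdgfb* (15.1) and *Aplnr* (0.364).

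Esm1 (endocan) is a proteoglycan secreted by endothelium that binds growth factors and is among the genes most used to mark tip cells. The deposited locus lies on chromosome 13, 113171608 to 113225908 (mm10), and spans *Esm1* and the neighboring *Gzmk* on the opposite strand. *Gzmk* has its own row, at 0 FPKM in every library. *Esm1* was 29.0, 54.4 and 42.0 FPKM in ECtrl replicates 1, 2 and 3, and 30.4, 46.1 and 38.0 in EfCtrl replicates 1, 2 and 3. The values were 74.8, 76.6 and 90.1 FPKM in the libraries labelled E3KO replicates 1, 2 and 3. Every E3KO library was above every control, and the nearest pair was the library labelled E3KO replicate 1 and ECtrl replicate 2. The mean was 40.0 ± 9.66 FPKM (SD, n = 6) in the controls and 80.5 ± 8.36 (SD, n = 3) in E3KO, a ratio of 2.01. The log2 difference was 0.97 (standard error 0.24) from ECtrl, with a limma adjusted p of 0.0732, and 1.07 (standard error 0.24) from EfCtrl, with an adjusted p of 0.0759. From both controls it was 1.02 (standard error 0.21, 95% confidence interval 0.55 to 1.49), with a limma adjusted p of 0.0337. The exact two-sided permutation test of the 3 E3KO against the 6 control libraries, on log2(FPKM + 0.1), gave p = 0.0119, the smallest that the 84 splits allow. The exact permutation p-values given here and below are not adjusted over genes. Of all genes tested, 5.18% had all 3 E3KO libraries above all 6 controls.

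The size of the *Esm1* difference was steadier than its call. Over 18 alternatives the log2 difference from both controls stayed between 0.90 and 1.12 and the gene was called in 11. It was not called without the library labelled E3KO replicate 1 (1.07, limma adjusted p = 0.0603, range over the 18 alternatives 0.0103 to 0.118), without E3KO replicate 2 (0.0726), E3KO replicate 3 (0.118), ECtrl replicate 3 (0.0557), EfCtrl replicate 1 (0.0792) or EfCtrl replicate 3 (0.0818), nor without a filter on low values (0.0642). These are limma adjusted p-values, and the number of genes called overall fell with each of these omissions. Without the library labelled E3KO replicate 1, the exact permutation p of *Esm1* was 0.0357, the smallest that 2 against 6 libraries allow.

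**Figure D3:**
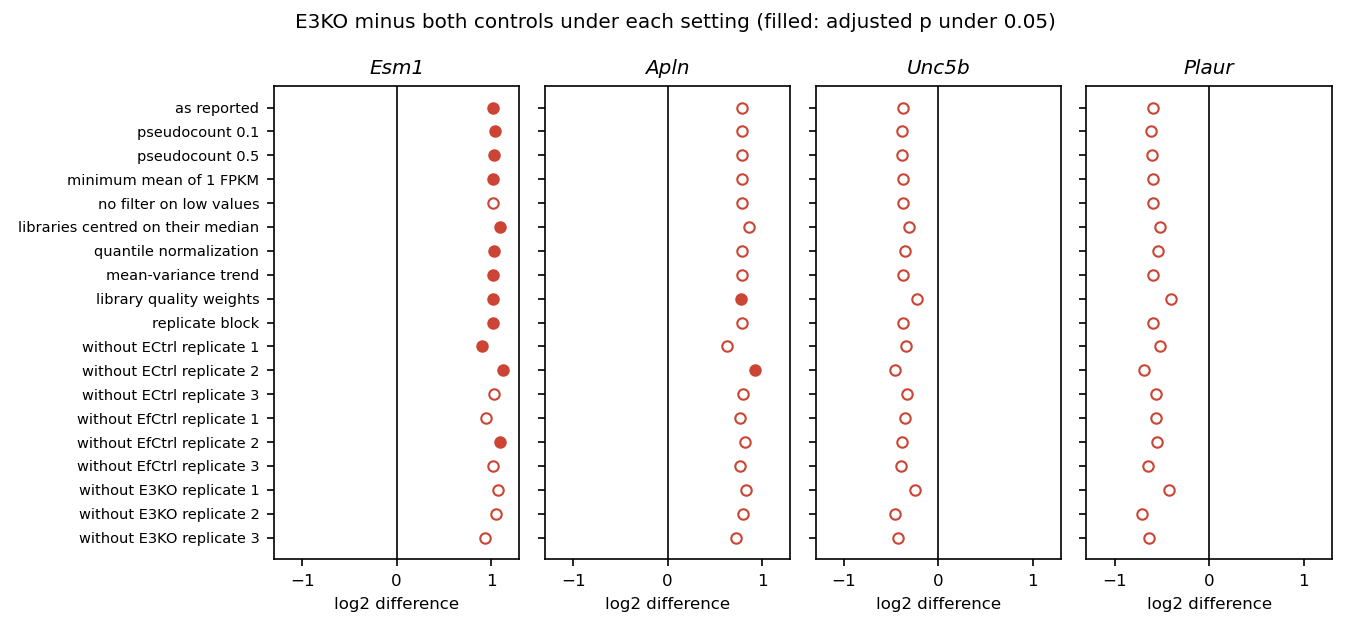
Log2 difference of E3KO from both controls (x axis) for *Esm1*, *Apln*, *Unc5b* and *Plaur* as reported and under each of 18 other settings (rows), with filled points where the limma adjusted p was under 0.05. *Esm1* is filled as reported and under 11 settings, *Apln* under 2, *Unc5b* and *Plaur* under 0, and no point crosses 0.

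The 250 bases before the start of *Esm1*, of the apelin gene and of *Plaur* are shown as the windows of the genes whose E3KO means lay farthest from the controls. They were taken from RefSeq (GRCm38.p6, the build the files use), which gave a window for 6 of the 9 genes (*Esm1*, *Apln*, *Cxcr4*, *Unc5b*, *Adm* and *Plaur*). These motifs were searched on both strands: the AP-1 site TGANTCA, the CRE TGACGTCA, the hypoxia response element cores ACGTG and GCGTG, and the RBPJ core TGGGAA, through which Notch signals. The matches found do not overlap each other. Capitals mark the matches.

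Esm1 (chr13:113209409-113209658, plus strand): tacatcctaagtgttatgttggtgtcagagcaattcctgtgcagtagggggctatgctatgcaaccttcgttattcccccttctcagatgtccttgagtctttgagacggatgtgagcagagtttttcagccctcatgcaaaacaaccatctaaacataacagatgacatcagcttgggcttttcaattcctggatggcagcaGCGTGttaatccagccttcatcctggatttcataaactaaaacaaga
Apln (chrX:48034854-48035103, minus strand): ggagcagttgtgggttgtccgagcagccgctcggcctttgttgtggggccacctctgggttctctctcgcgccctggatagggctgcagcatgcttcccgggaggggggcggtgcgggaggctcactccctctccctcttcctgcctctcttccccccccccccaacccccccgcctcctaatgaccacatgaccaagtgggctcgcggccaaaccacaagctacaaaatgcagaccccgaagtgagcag
Plaur (chr7:24462233-24462482, plus strand): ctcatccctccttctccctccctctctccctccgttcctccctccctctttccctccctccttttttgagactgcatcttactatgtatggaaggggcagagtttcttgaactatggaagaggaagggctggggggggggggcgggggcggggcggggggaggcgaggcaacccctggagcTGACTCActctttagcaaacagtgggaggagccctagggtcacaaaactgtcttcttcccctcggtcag

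The *Esm1* window held a hypoxia response element core, GCGTG, that begins 47 bases before the start, a kind of match found in 38.6% of 32851 windows. The *Apln* window held none of the motifs. The *Plaur* window held an AP-1 site, TGACTCA, that begins 69 bases before the start, and 6.75% of all windows hold such a site. Of the windows not shown, those of *Cxcr4* and *Unc5b* had 1 hypoxia response element core each and that of *Adm* had 2, besides an RBPJ core (21.6% of all windows). No window held a CRE (1.55%). A match is a description of the letters only.

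*Apln* encodes apelin, a peptide that tip cells release, and *Aplnr* its receptor. *Apln* (chromosome X, 48025146 to 48034853) was 79.0, 182 and 126 FPKM in ECtrl replicates 1, 2 and 3 and 100, 119 and 102 in EfCtrl replicates 1, 2 and 3. The libraries labelled E3KO replicates 1, 2 and 3 had 187, 193 and 215 FPKM. All 3 were above all 6 controls, but ECtrl replicate 2 lay only just below the lowest of them. The mean was 118 ± 35.5 FPKM (SD, n = 6) in the controls and 198 ± 14.7 (SD, n = 3) in E3KO. The log2 difference was 0.69 from ECtrl (limma adjusted p = 0.201), 0.88 from EfCtrl (0.149) and 0.79 from both (95% confidence interval 0.26 to 1.31, 0.0910), so no call was made. The exact permutation p was 0.0238. It was 0.0357 without the library labelled E3KO replicate 1, where the log2 difference was 0.83 (limma adjusted p = 0.139). Against both controls *Apln* was called without ECtrl replicate 2, the control with the highest value (log2 difference 0.93, limma adjusted p = 0.0344), and with libraries weighted by their quality (0.77, 0.0276), in a range of 0.0276 to 0.197 over 18 alternatives.

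*Aplnr* (chromosome 2, 85136360 to 85139922) was at or under 0.746 FPKM in all 9 libraries and was not tested by limma. Its mean was 0.406 ± 0.213 FPKM (SD, n = 6) in the controls and 0.364 ± 0.283 (SD, n = 3) in E3KO, and the groups overlapped (exact permutation p = 0.619, and 0.536 without the library labelled E3KO replicate 1, where the log2 difference turned to 0.36 on the log2(FPKM + 0.1) scale). The ligand was thus abundant in these cultures and its receptor near the bottom of the range. *Apela*, the other ligand of the receptor, had no row that could be matched.

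*Cxcr4*, the receptor for the chemokine Cxcl12, had the highest mean of the 9 genes in the controls and in E3KO, but *Apln* exceeded it in the libraries labelled E3KO replicates 1 and 3. It lies on chromosome 1, 128588199 to 128592293. Its FPKM was 150, 194 and 256 in ECtrl replicates 1, 2 and 3, 190, 202 and 193 in EfCtrl replicates 1, 2 and 3, and 186, 251 and 190 in the libraries labelled E3KO replicates 1, 2 and 3. The spread within ECtrl exceeded any difference between the groups, and the log2 difference from both controls was 0.08 (95% confidence interval -0.32 to 0.48, limma adjusted p = 0.792). It was 0.16 without the library labelled E3KO replicate 1 (adjusted p = 0.681, range over alternatives 0.471 to 0.971). *Cxcl12* itself was low, at 8.80 ± 3.23 FPKM (SD, n = 6) in the controls and 6.29 ± 2.13 (SD, n = 3) in E3KO. *Ackr3*, a scavenging receptor for the same chemokine, was 13.1 ± 2.01 (SD, n = 6) and 9.63 ± 2.28 FPKM (SD, n = 3), with a log2 difference of -0.41 (limma adjusted p = 0.167).

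*Adm* encodes adrenomedullin, a peptide that acts on the receptor formed by Calcrl and a Ramp protein. Its locus on chromosome 7, 110627669 to 110629819, is overlapped by an antisense transcript, and use of strand in the quantification is not stated. *Adm* was 175, 172 and 122 FPKM in ECtrl replicates 1, 2 and 3, 171, 138 and 165 in EfCtrl, and 182, 155 and 153 in E3KO, in the same order of replicates. The groups overlapped throughout, with a log2 difference from both controls of 0.06 (95% confidence interval -0.27 to 0.40, limma adjusted p = 0.811). The difference was -0.02 without the library labelled E3KO replicate 1 (adjusted p = 0.961, range over alternatives 0.624 to 0.961). *Calcrl* was 67.0 ± 11.7 FPKM (SD, n = 6) in the controls and 48.0 ± 10.3 (SD, n = 3) in E3KO, a log2 difference of -0.48 (limma adjusted p = 0.119). *Ramp2* shares its deposited locus with *Vps25*, so its own level is not given, and *Ramp1* did not exceed 0.0580 FPKM. *Ramp3* was 13.4 ± 3.61 FPKM (SD, n = 6) in the controls and 15.6 ± 2.17 (SD, n = 3) in E3KO. Its log2 difference from both controls was 0.23 (limma adjusted p = 0.5475).

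*Angptl4*, a secreted inhibitor of lipoprotein lipase that hypoxia and fatty acids induce, lies on chromosome 17, 33773750 to 33781575. It was 22.7, 29.0 and 34.0 FPKM in ECtrl replicates 1, 2 and 3, 32.4, 33.9 and 30.1 in EfCtrl, and 27.8, 40.4 and 27.2 in E3KO. Only the library labelled E3KO replicate 2 was above all controls, and the log2 difference from both was 0.05 (95% confidence interval -0.33 to 0.43, limma adjusted p = 0.862). It was 0.14 without the library labelled E3KO replicate 1 (adjusted p = 0.712, range over alternatives 0.630 to 0.948). Its target *Lpl* was 8.16 ± 3.82 FPKM (SD, n = 6) in the controls and 13.6 ± 0.225 (SD, n = 3) in E3KO, with overlapping groups and a log2 difference of 0.80 (limma adjusted p = 0.199).

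*Pdgfb* encodes the growth factor by which sprouts recruit pericytes, which carry its receptor Pdgfrb. The locus is chromosome 15, 79995900 to 80014808, and holds the microRNA gene *Mir7213* and an antisense transcript. *Pdgfb* was 22.6, 18.4 and 16.7 FPKM in ECtrl replicates 1, 2 and 3, 17.9, 14.5 and 20.5 in EfCtrl, and 18.2, 14.0 and 13.0 in E3KO. E3KO replicates 2 and 3 were below all controls and the library labelled E3KO replicate 1 was among them, with a log2 difference from both of -0.28 (95% confidence interval -0.64 to 0.08, limma adjusted p = 0.318). Without the library labelled E3KO replicate 1 it was -0.41 (adjusted p = 0.179, range over alternatives 0.0902 to 0.553). *Pdgfa*, which encodes the other classical chain, was 1.75 ± 0.640 FPKM (SD, n = 6) in the controls and 3.95 ± 1.36 (SD, n = 3) in E3KO, a log2 difference of 0.85 (limma adjusted p = 0.0980). *Pdgfrb* did not exceed 0.440 FPKM in any library.

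*Unc5b* encodes a netrin receptor through which sprouts are repelled. It lies on chromosome 10, 60762610 to 60831581, a span that also holds the transcript model *Gm19972* on the same strand. *Unc5b* was 48.6, 34.9 and 50.3 FPKM in ECtrl replicates 1, 2 and 3 and 49.6, 45.9 and 44.3 in EfCtrl replicates 1, 2 and 3. The values were 28.8, 38.8 and 37.0 in the libraries labelled E3KO replicates 1, 2 and 3. All E3KO values were below all controls but ECtrl replicate 2, which lay below E3KO replicates 2 and 3. The mean was 45.6 ± 5.72 FPKM (SD, n = 6) in the controls and 34.9 ± 5.32 (SD, n = 3) in E3KO, with a log2 difference of -0.38 (95% confidence interval -0.72 to -0.04, limma adjusted p = 0.174) and an exact permutation p of 0.0476. Without the library labelled E3KO replicate 1 the log2 difference was -0.25 (limma adjusted p = 0.362, range over alternatives 0.0864 to 0.362), and the exact permutation p was 0.143.

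Of the netrins, *Ntn4*, a laminin-related protein of basement membranes, fell, with 86.0 ± 10.6 FPKM (SD, n = 6) in the controls and 58.8 ± 7.04 (SD, n = 3) in E3KO, a log2 difference of -0.54 (limma adjusted p = 0.0495). Its call was held in 3 of 18 alternatives and not without the library labelled E3KO replicate 1 (-0.62, limma adjusted p = 0.0509, range 0.00798 to 0.152). *Ntn1*, the classical ligand of Unc5b, was far lower, at 2.96 ± 0.699 FPKM (SD, n = 6) and 1.39 ± 0.328 (SD, n = 3), with a log2 difference of -0.72 that missed the threshold (limma adjusted p = 0.0534). For both netrins all 3 E3KO libraries were below all 6 controls. *Robo4*, a receptor reported to bind Unc5b on the vessel wall, was 68.8 ± 5.54 (SD, n = 6) and 72.7 ± 7.03 FPKM (SD, n = 3), a log2 difference of 0.08 (limma adjusted p = 0.647).

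*Plaur* encodes the receptor that holds urokinase at the cell surface, on chromosome 7, 24462500 to 24475873. It was 42.1, 25.2 and 36.9 FPKM in ECtrl replicates 1, 2 and 3 and 34.7, 35.8 and 27.1 in EfCtrl replicates 1, 2 and 3. The values were 17.1, 25.7 and 23.0 in the libraries labelled E3KO replicates 1, 2 and 3. Replicates 1 and 3 of E3KO were below all controls, and replicate 2 was above ECtrl replicate 2 only. The mean was 33.6 ± 6.36 FPKM (SD, n = 6) in the controls and 22.0 ± 4.38 (SD, n = 3) in E3KO, a ratio of 0.653. The log2 difference was -0.63 from ECtrl (limma adjusted p = 0.179), -0.56 from EfCtrl (0.249) and -0.59 from both (95% confidence interval -1.04 to -0.15, 0.121). The exact permutation p was 0.0357. Without the library labelled E3KO replicate 1 the log2 difference was -0.43 (limma adjusted p = 0.253, range over alternatives 0.0651 to 0.253) and the exact permutation p was 0.143.

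Around the receptor, the genes of plasminogen activation took different courses. *Plau*, which encodes urokinase, was the most abundant, at 998 ± 48.3 FPKM (SD, n = 6) in the controls and 972 ± 122 (SD, n = 3) in E3KO, a log2 difference of -0.04 (95% confidence interval -0.28 to 0.20, limma adjusted p = 0.819). *Plat*, the tissue-type activator, was 52.7 ± 8.68 FPKM (SD, n = 6) and 33.1 ± 7.55 (SD, n = 3), a log2 difference of -0.66 (limma adjusted p = 0.0933). *Serpine2*, which encodes an inhibitor of thrombin and of plasminogen activators (protease nexin 1), fell, with 97.0 ± 8.62 FPKM (SD, n = 6) in the controls and 53.2 ± 6.65 (SD, n = 3) in E3KO, a log2 difference of -0.86 from both controls (limma adjusted p = 0.0131). Against both it remained called without the library labelled E3KO replicate 1 (-0.90, limma adjusted p = 0.0261) and in 17 of 18 alternatives, the exception being the omission of E3KO replicate 3 (0.0746, range from 0.00332). It was called against ECtrl (limma adjusted p = 0.0298) and in 10 of 19 alternatives (0.0191 to 0.136), and against EfCtrl (0.0373) and in 9 of 19 (0.00431 to 0.170), and without the library labelled E3KO replicate 1 these values were 0.0409 and 0.0510.

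**Figure D4:**
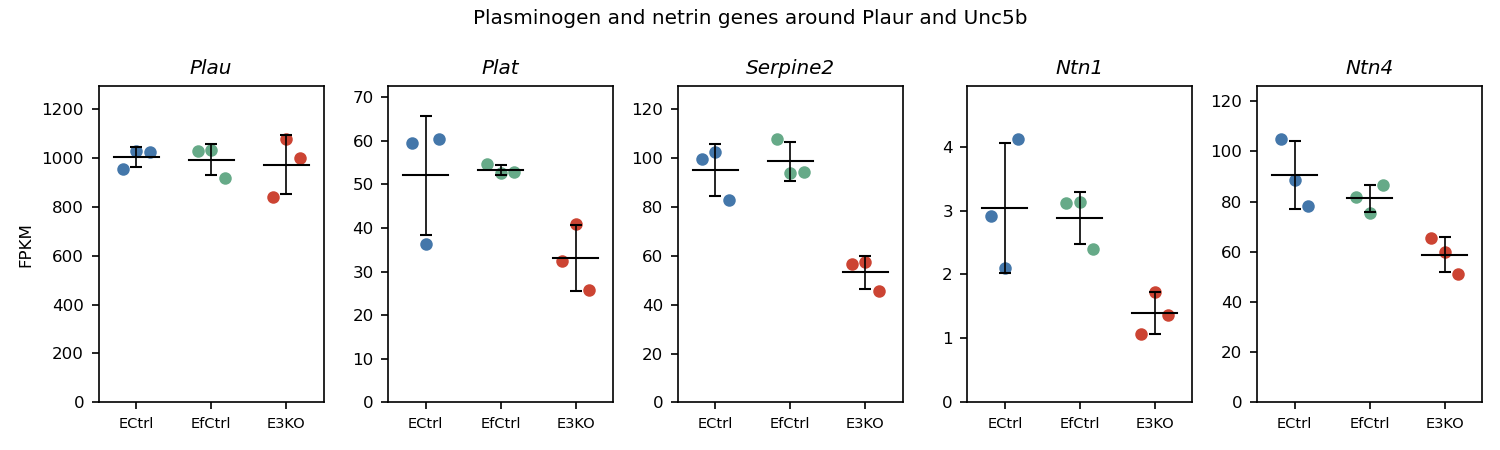
FPKM (y axes, linear from 0) of 3 genes of plasminogen activation and its inhibition and of 2 netrins in each library (points, replicates 1 to 3 from left to right), with the mean (line) and SD (bar) of each group of 3. *Serpine2*, *Ntn1* and *Ntn4* have all E3KO points below all controls, and *Plau* overlaps between the groups.

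The lists around these genes were read by their calls against both controls. Of 24 matched ligands, receptors and partners of the 9 genes, 20 were tested, 0 were higher and 2 lower (*Serpine2* and *Ntn4*), where 3.26% of all genes were called lower. Of these only *Serpine2* was called without the library labelled E3KO replicate 1. The list median was -0.18, against -0.08 over all genes. Of 28 other tip cell genes 27 were tested and 2 were higher, against 1.54% of all genes called higher. These were *Rgcc*, a regulator of the cell cycle listed under an older symbol, at 4.61 ± 1.24 FPKM (SD, n = 6) and 12.3 ± 1.72 (SD, n = 3), with a log2 difference of 1.27 (limma adjusted p = 0.0165), and *Lxn*, a carboxypeptidase inhibitor, with 0.44 (0.0418). None of these 27 was called lower, and the median was 0.11. An unadjusted limma p under 0.05 was reached by 11 of them, in both directions, and by 2522 of all 10605 genes. Of the 27 log2 differences 15 were positive and 12 negative. *Rgcc* remained called without the library labelled E3KO replicate 1 (1.19, limma adjusted p = 0.0391, range over alternatives 0.00698 to 0.0746). *Lxn* was then not called (0.36, 0.0685, range 0.0152 to 0.116), whereas *Nid1*, which encodes the basement membrane protein nidogen, was (0.80, 0.0266, against 0.59 and 0.0853 with that library). The list of VEGF and Notch genes (17 tested, median -0.12) had 1 call higher and 2 lower. *Flt1*, the VEGF receptor that traps its ligand, rose by a log2 difference of 1.02 (limma adjusted p = 0.0492). *Hey1*, a transcription factor induced by Notch, changed by -1.06 (0.0184), and *Pgf*, placental growth factor, by -0.72 (0.0222), both lower. Both remained called without the library labelled E3KO replicate 1, *Hey1* with a limma adjusted p of 0.0401 (range over alternatives 0.00338 to 0.0758) and *Pgf* with 0.0442 (0.00833 to 0.0916). Against single control groups the other calls in these lists were *Rgcc* (higher than ECtrl, held in 9 of 19 alternatives) and *Hey1* (lower than ECtrl, held in 10 of 19).

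Among 13 tested genes of stalk or quiescent endothelium 2 were higher and 0 lower, where 1.54% of all genes were called higher and 3.26% lower. *Selp*, the adhesion receptor P-selectin, had a log2 difference of 1.36 (limma adjusted p = 0.0182) and *Flt1* is also in this list, whose median was 0.02. Against single control groups *Selp* was called against ECtrl (limma adjusted p = 0.0309, held in 9 of 19 alternatives), and no gene of the stalk or hypoxia lists was called against EfCtrl. Of 19 tested genes that hypoxia induces, 1 was higher and 0 lower, beside the same 1.54% and 3.26% of all genes. It was *Pdk1*, a kinase that restrains pyruvate oxidation, with a log2 difference of 1.08 (limma adjusted p = 0.0411), and the list median was 0.01. Of these 19, 6 had an unadjusted limma p under 0.05, beside 2522 of all 10605 genes. Without the library labelled E3KO replicate 1, *Pdk1* and *Flt1* were not called (0.88, limma adjusted p = 0.0866, range 0.0129 to 0.118, and 1.08, 0.0782, range 0.00941 to 0.145), and *Selp* was (1.35, 0.0394, range 0.00423 to 0.0843).

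**Figure D5:**
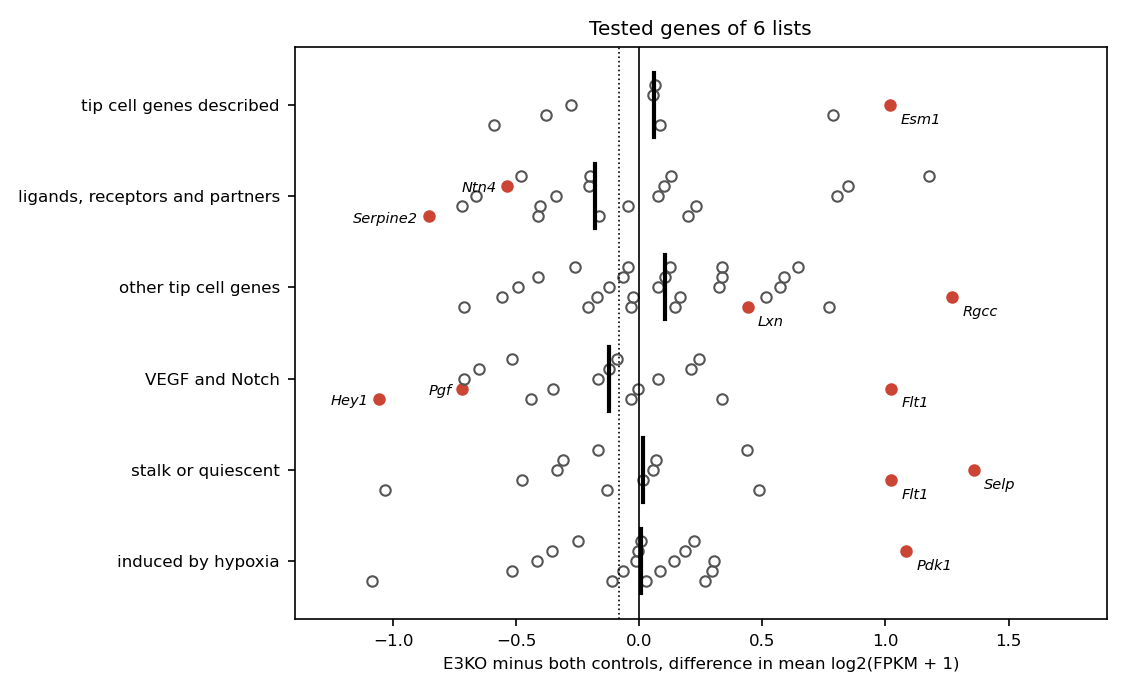
Log2 differences of E3KO from both controls (x axis, log2(FPKM + 1) scale) for the tested genes of 6 lists (rows). Filled and named points passed the limma adjusted p threshold, open points did not, thick bars are list medians and the dotted line is the median of all genes. List medians lie between -0.18 and 0.11, and each list has 1 to 3 filled points.

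Of all 10605 genes, 509 were called against both controls, 163 higher and 346 lower, so 32% of the calls were higher. With libraries centred on their median the split was 209 to 268 (43.8% higher), and with quantile normalization 214 to 232 (48%). *Esm1* was called under both scalings.

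Markers of other cells were read as well. Of 7 lymphatic endothelial markers, all tested, 3 were called lower (*Prox1*, *Reln* and *Ccl21a*) and 0 higher, where 3.26% of all genes were called lower. *Prox1* (limma adjusted p = 0.0285, range over alternatives 0.00468 to 0.0746) and *Reln* (0.0343, range 0.00551 to 0.0803) remained called without the library labelled E3KO replicate 1, and *Ccl21a* did not (0.0638, range 0.00888 to 0.121). The summed FPKM of the 7 was 2527 to 3341 in ECtrl, 2467 to 2803 in EfCtrl and 2275 to 2566 in E3KO, most of it from *Lyve1* (1513 to 2050.4). *Prox1*, the factor that defines lymphatic identity, was 134 ± 15.4 FPKM (SD, n = 6) in the controls and 67.3 ± 10.8 (SD, n = 3) in E3KO. The 12 leukocyte markers summed to 86.3 to 182 FPKM in ECtrl, 182 to 302 in EfCtrl and 238 to 368 in E3KO. Of the 6 tested 0 were called and 3 had an unadjusted limma p under 0.05. *Cd68* was called higher without the library labelled E3KO replicate 1 (limma adjusted p = 0.0261). All 6 had a positive log2 difference from both controls, with a median of 0.71, against -0.08 over all genes. *Lyz2* was the highest, at 107 ± 53.4 FPKM (SD, n = 6) in the controls and 189 ± 48.6 (SD, n = 3) in E3KO. *Cd68* was 19.2 ± 5.51 (SD, n = 6) and 36.1 ± 16.9 FPKM (SD, n = 3). *Ptprc* did not exceed 1.59 FPKM and *Cd3e* was at 0 in all libraries. The 12 mural and fibroblast markers summed to 12.1 to 45.5 FPKM in ECtrl, 25.9 to 78.2 in EfCtrl and 10.1 to 23.2 in E3KO, with 0 of 5 called (3 at an unadjusted limma p under 0.05) and *Acta2* the highest. Beside these unadjusted counts, 2522 of all 10605 genes had an unadjusted limma p under 0.05 against both controls. The 8 epithelial markers summed to 3.15 to 6.16 FPKM, apart from 51.5 in the library labelled E3KO replicate 1, where *Scgb1a1* was 46.2. Of 12 endothelial markers *Emcn* was called higher (log2 difference 0.63, limma adjusted p = 0.0260) and *Cldn5* lower (-0.92, 0.0322), where 4.8% of all genes were called in either direction. Neither was called without the library labelled E3KO replicate 1 (*Emcn* 0.0540 and *Cldn5* 0.0704), and over 18 alternatives *Emcn* was called in 11 (limma adjusted p 0.00792 to 0.213) and *Cldn5* in 9 (0.0135 to 0.104). The part of any of these in the values of the 9 genes was not tested.

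The genes whose pattern over the 9 libraries was most like that of *Esm1*, by the root mean square difference of log2(FPKM + 1) after each gene was centred on its mean, were *Hmgcll1* (0.0854), *Lpar6* (0.118) and *Steap2* (0.134). The median over all genes was 0.634. *Lpar6*, a receptor for lysophosphatidic acid, was the one nearest in level, at 49.8 ± 7.49 FPKM (SD, n = 6) in the controls and 96.2 ± 10.5 (SD, n = 3) in E3KO. *Hmgcll1*, an enzyme of ketone body formation, was 2.45 ± 0.687 (SD, n = 6) and 6.65 ± 0.901 FPKM (SD, n = 3), and *Steap2*, a metalloreductase, was 9.42 ± 1.96 (SD, n = 6) and 20.5 ± 3.18 FPKM (SD, n = 3). As these genes were chosen for their likeness, their differences are a description.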

How the data were processed

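Primary MLEC from 9 separate isolations (3 each of ECtrl, EfCtrl and E3KO) were profiled by paired-end RNA-seq. The authors aligned the reads to mm10 with TopHat2, estimated expression with Cufflinks and merged and compared the transcript models with Cuffmerge and Cuffdiff, and they deposited 1 FPKM value per locus and library, normalized to exon length and to mapped fragments. Use of strand is not stated. The tables also hold the authors' group FPKM, fold changes, p-values and q-values for pairs of groups, which were not used. Replicates are isolations from different mice. How many fragments lie behind each FPKM is unknown.

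Samples were assigned to groups by their titles. The 3749 loci that share a symbol and 2 loci with text in place of a value were left out, which leaves 33353 symbols. Per-library values of the tables that repeat a library differed in 0 cells. Members and gene lists were chosen with earlier results of these data known, so no list is independent support for a pattern in them. The values of 1 partner gene are not reported here.

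limma 3.58.1 in R 4.3.3 (lmFit, contrasts.fit, eBayes with default moderation) was run on the log2(FPKM + 1) values with the 3 groups as terms, for 10605 genes with a group mean of at least 2 FPKM. p-values were adjusted by the Benjamini-Hochberg method over all of them for each contrast. A pseudocount of 1 understates the change of low genes. The fit and the permutation test were tested on simulated data. Single members were also compared by exact two-sided permutation of 3 E3KO against 6 control libraries on log2(FPKM + 0.1), since 3 against 3 cannot go below p = 0.10, and their levels by exact sign flips within the 6 control libraries. Named genes are the 9 members, *Mapk8*, *Mapk9* and *Mapk10*, the called genes of each list (at most 6 a list), the called genes and the most abundant gene of each marker list, the 3 genes with the profile nearest to a called member, and ligands or receptors of a member. *Ptprc*, *Cd3e*, *Cdh5*, *Nid1* and *Cd68* were added after their values were seen. *Ramp2* and the endothelial marker *Eng* entered the list counts by loci that each hold another gene as well. Loci were placed in the GENCODE M21 annotation of the same build. Promoter windows come from RefSeq, and Python 3.11.15, numpy 2.4.6, pandas 2.3.3, scipy 1.17.1 and matplotlib 3.10.9 were used. Alternatives covered pseudocounts, filters, centring, quantile normalization, a mean-variance trend, library weights, a replicate block, fits of 2 groups and the omission of each library.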

Additional observations from a re-analysis of the deposited data

How the results depend on the processing

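The directions of *Esm1*, *Apln*, *Pdgfb*, *Unc5b* and *Plaur* in E3KO against each control group and against both held under every alternative run, and those of *Cxcr4*, *Adm* and *Angptl4*, which lie near 0, did not. The number of genes called against ECtrl (239) was 95 with no filter on low values, 460 with libraries weighted by quality and 0 with only the 2 groups in the fit. Against EfCtrl (101) it was 17 with no filter and 1238 with weights, and against both controls (509) it was 1333 with weights, which give the library labelled E3KO replicate 1 a weight of 0.133. With each library left out in turn these counts ran from 0 to 215, from 1 to 218 and from 9 to 408, and between the controls from 0 to 4. The lowest count against both controls was the one without E3KO replicate 3. The cause was not tested. Of the exact permutation tests of the 9 genes 4 were under 0.05 (*Esm1*, *Apln*, *Plaur* and *Unc5b*), and 1 to 4 with a library left out, where having 1 library fewer raises the smallest p to 0.0179 or 0.0357. These p-values are not adjusted over the 9 genes, and the share of all genes under 0.05 in this test is not given. All 3 E3KO libraries lay outside the range of the 6 controls for 16.6% of the 10605 genes. Of the 8 neighboring pairs in the order of levels 0 passed over 6 control libraries. Over all 9 libraries the order of means differs, and of the 8 pairs it forms 5 passed. Without 1 control the smallest sign-flip permutation p is 0.0625, so no pair could pass.

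With replicate number as a block the calls were 1 against ECtrl, 1 against EfCtrl and 202 against both controls, and *Esm1* stayed called against both (limma adjusted p = 0.0416). The labels do not say whether same-numbered libraries, which come from different mice, were prepared together. Deviations of same-numbered libraries correlated between -0.0395 and 0.123.

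With libraries weighted by quality the log2 difference of *Adm* was -0.0240 from ECtrl, -0.0115 from EfCtrl, -0.0178 from both controls and -0.0125 for EfCtrl against ECtrl. That of *Angptl4* from EfCtrl was 0.00246 with weights and 0.0332 with centred libraries, and that of *Cxcr4* for EfCtrl against ECtrl was 0.000954 with weights and 0.0189 with quantile normalization. With each library left out in turn, *Cxcr4* ran from -0.106 to 0.277 against ECtrl, from -0.0539 to 0.162 against EfCtrl, from -0.0552 to 0.181 against both controls and from -0.0554 to 0.163 in the permutation test. *Adm* ran in the same order from -0.0910 to 0.169, from -0.0452 to 0.109, from -0.0204 to 0.109 and from -0.0170 to 0.110, and *Angptl4* from -0.0342 to 0.276, from -0.216 to 0.0609, from -0.125 to 0.152 and from -0.129 to 0.156. *Aplnr* ran from -0.711 to 0.362 in the permutation test. For EfCtrl against ECtrl the ranges were -0.338 to 0.105 for *Esm1*, -0.503 to 0.0952 for *Apln*, -0.192 to 0.192 for *Cxcr4*, -0.230 to 0.00627 for *Pdgfb*, -0.0851 to 0.173 for *Unc5b*, -0.141 to 0.123 for *Adm* and -0.280 to 0.0784 for *Plaur*. These are log2 differences.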
